A study of Homo sapiens with 8 samples.

Results

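The MYC and PVT1 locus was taken as chromosome 8 from 127900000 to 130700000 on build hg19, a stretch of 2.8 Mb with MYC at about 128.75 Mb and PVT1 at 128.81 to 129.11 Mb. Peaks of 8 ATAC-seq libraries were merged wherever they shared at least 1 bp, and merged regions that overlapped this stretch were kept. This gave 100 regions out of 80588 over chromosomes 1 to 22 and X, chosen by position alone. The cells were HSC-3 irradiated with 8 Gy, HSC-3 given 0 Gy, KOSC-2 irradiated with 8 Gy and KOSC-2 given 0 Gy, with 2 libraries in each group and freezing 24 hours after the dose. Both are established lines of oral squamous cell carcinoma, and the labels class HSC-3 as radioresistant and KOSC-2 as radiosensitive. With 1 line in each class, line and radiosensitivity cannot be told apart. It is not stated whether replicate libraries were made from independent cultures, and the p-values therefore reflect library-to-library spread, which may be technical. In bulk cells, a smaller share of cells open at a region and a weaker opening in every cell cannot be told apart. The markers of epithelial, mesenchymal and blood cells were not analysed here, because gene positions of hg19 were not at hand.

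MYC encodes a basic helix-loop-helix leucine zipper transcription factor that pairs with MAX and drives growth, ribosome production and cell division. The gene sits in a stretch poor in other protein-coding genes, and its transcription is set by enhancers spread over great distances on both sides, with different ones used in different tissues. PVT1, its neighbour on the telomeric side, makes a long noncoding RNA and hosts several microRNAs. In breast cancer cells its promoter is known to compete with that of MYC for enhancers within the PVT1 body. In the RefSeq gene table of assembly GRCh38.p14, used here for the order of neighbours alone, the noncoding genes PCAT1, PRNCR1, CASC19, CCAT1, CASC8 and CCAT2 and the gene POU5F1B are among those that come before MYC. LINC00824, LINC00976, LINC00977, CCDC26 and then GSDMC follow PVT1. From PCAT1 to GSDMC the table lists 35 entries, of which 3 are protein-coding, 21 are long noncoding RNAs, 6 are microRNAs and 5 are pseudogenes.

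ATAC-seq marks open chromatin by where the Tn5 transposase can insert adapters, and the authors deposited a list of peaks for each library. HSC-3 lists held 22504 and 43089 peaks at 8 Gy and 41926 and 23490 peaks at 0 Gy. KOSC-2 lists held 51693 and 42407 peaks at 8 Gy and 38234 and 45471 peaks at 0 Gy. HSC-3 8 Gy replicate 1 and HSC-3 0 Gy replicate 2 were thus short, and counts of calls are read with that in view. Background depth was 20.2 to 42.6 reads per 10 kb in HSC-3 libraries and 24.3 to 64.8 in KOSC-2 libraries, and a called summit had at least 5 to 9 reads depending on the library, which made weaker openings undetectable. Fold enrichment and −log10 p of a peak are the authors' values over the background of its own library, and folds of different libraries are set side by side as a description. A percentile is the place of a peak within its own list by −log10 p, with 100 the strongest, and such percentiles from lists of different lengths show no change between libraries.

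Open regions lined both sides of MYC and, in steps of 200 kb, were rarest from 1150 to 1550 kb on the telomeric side. The 100 regions were 300 to 1426 bp wide, with a median of 504.5 bp, and covered 56.5 kb or 2.02% of the stretch. Neighbouring regions lay a median of 17.6 kb apart. In the 840 kb on the centromeric side there were 28 regions, or 3.33 per 100 kb. Within 10 kb of MYC there were 4, in the 45 kb between there and PVT1 none was called by any library, and PVT1 with 5 kb on each side held 20, or 6.45 per 100 kb. The 1585 kb beyond PVT1 held 48, or 3.03 per 100 kb. PVT1 was denser than either flank, and open regions covered 14.5% of the bases within 10 kb of MYC, 4.61% in PVT1, 1.97% on the centromeric side and 1.44% on the telomeric side. In steps of 200 kb, the step from 350 to 550 kb telomeric of MYC held the most regions, 14. The steps from 1150 to 1350 kb and from 1350 to 1550 kb held the fewest, 1 and 3. The last step, from 1750 to 1950 kb, held 8.

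**Figure D1:**
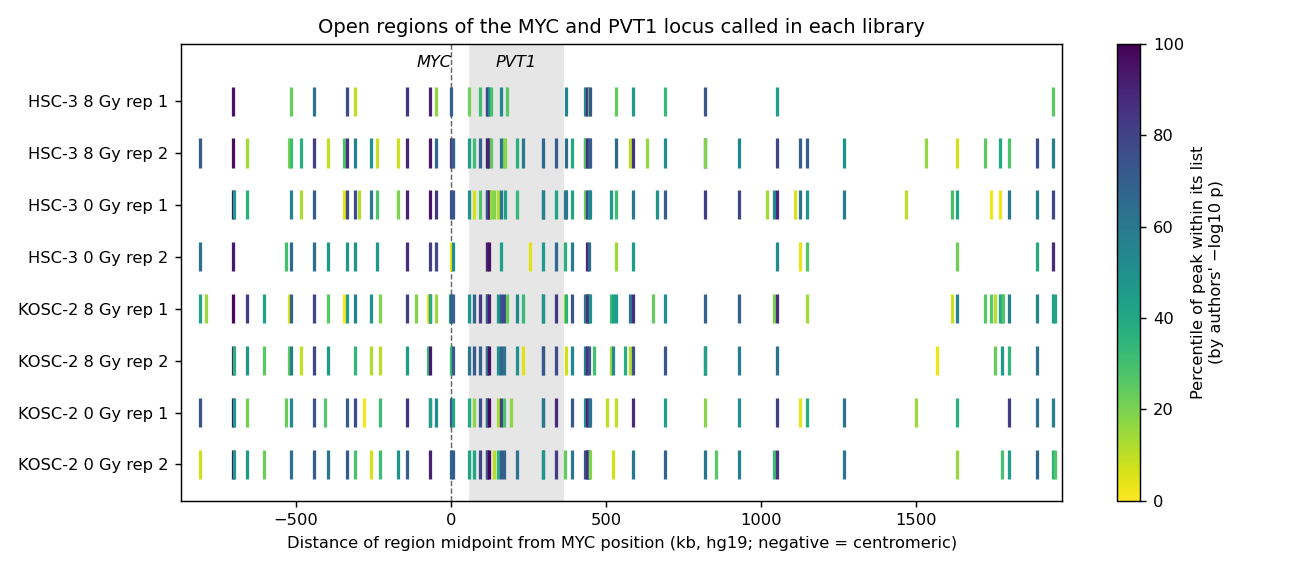
Each bar is an open region called in a library (rows), placed by the distance of its midpoint from the MYC position in kb (negative is centromeric) and coloured by the percentile of its peak within the list of that library. The grey band is PVT1. The 15 regions called in all 8 libraries run from 701.9 kb on the centromeric side to 1050.1 kb on the telomeric side, and between them lie regions called in only some libraries or in 1 line.

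The lines shared 64 of the 100 regions. These were called in at least 1 library of each line (64.0%, against 51.8% of all 80588 regions). Another 13 were called in HSC-3 libraries alone and 23 in KOSC-2 libraries alone, against 13064 and 25806 of the 80588. Every HSC-3 library called 19 of the 100 regions, against 18.1% of all regions, and every KOSC-2 library 33, against 31.8%. All 19 were called in some KOSC-2 library, as were 98.3% of such regions over the genome, and 32 of the 33 in some HSC-3 library (97.0%, against 93.5%). The shares for regions called by every library of a line were near those of the whole genome. Calls in all 8 libraries numbered 15 (15.0%, against 15.9% of all regions) and calls in a single library 24 (24.0%, against 31.9%). The regions called everywhere had a median percentile of 72.2 in their lists, and those called once a median of 16.6. A further 14 regions were called in the 6 longer lists and missed by at least 1 of the short HSC-3 lists, against 8374 of all 80588. Those 14 had a median percentile of 60.5 over the 6 lists, where the regions called everywhere had 75.4.

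The regions open in all 8 libraries ran from 701.9 kb centromeric to 1050.1 kb telomeric of MYC. Beyond the last of these lay 20 more regions, of which 2 were called in 7 libraries and 6 in a single library. The longest stretch without any call was 197.0 kb, from 130017805 to 130214758. Regions called everywhere lay a median of 93.15 kb apart.

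Next to MYC, 1 region was open in every library. It spans chr8:128747294-128748712, with its midpoint 2.0 kb centromeric of the position used for MYC. That position is approximate, so the overlap of the region with the MYC promoter was not determined here. Its summit fold was 4.99 and 7.29 in HSC-3 at 8 Gy, 5.44 and 3.44 in HSC-3 at 0 Gy, 5.48 and 4.30 in KOSC-2 at 8 Gy and 4.80 and 5.82 in KOSC-2 at 0 Gy. The pileups behind these folds were 41, 52, 57 and 17 reads in the HSC-3 libraries and 65, 33, 64 and 53 reads in the KOSC-2 libraries, in the same order of doses. The value of HSC-3 0 Gy replicate 2 was the lowest, at percentile 2.0 of its list, and the other 7 libraries lay between percentiles 31.9 and 83.8. The strongest point lay 224 to 275 bp from the start of the region in HSC-3 8 Gy replicate 2 and both KOSC-2 8 Gy libraries, and 956 to 1159 bp from it in the other 5, a range of 935 bp.

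A second region, chr8:128755186-128755638, with its midpoint 5.4 kb telomeric of the MYC position, was called in 7 libraries and missed by HSC-3 8 Gy replicate 1, a short list. Its fold was 6.88 in the other HSC-3 8 Gy library, 6.90 and 6.12 in HSC-3 at 0 Gy, 7.49 and 10.08 in KOSC-2 at 8 Gy and 4.63 and 7.89 in KOSC-2 at 0 Gy. HSC-3 values lay inside the range of KOSC-2 values. The remaining 2 regions near MYC were called once each, chr8:128754366-128755092 in HSC-3 8 Gy replicate 2 (fold 4.11) and chr8:128746260-128746559 in KOSC-2 8 Gy replicate 1 (fold 3.81).

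Centromeric of MYC, the region of highest mean percentile in the whole locus (95.7) lay 701.9 kb away, at chr8:128047666-128048480. Its fold was 10.45 and 12.08 in HSC-3 at 8 Gy, 11.89 and 9.82 in HSC-3 at 0 Gy, 11.74 and 11.25 in KOSC-2 at 8 Gy and 10.70 and 11.68 in KOSC-2 at 0 Gy. It stood at percentile 92.3 or higher in all 8 lists, on pileups of 38 to 102 reads, and the lines and doses overlapped. The next by mean percentile (91.5), chr8:128680277-128681531, lay 69.1 kb from MYC, with folds of 7.42 to 9.83 in HSC-3 and 8.20 to 11.01 in KOSC-2.

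The other 3 of the 5 strongest centromeric regions were of middling to high rank. At 141.4 kb, chr8:128608280-128608960 had a mean percentile of 79.3, and at 443.1 kb the widest region of the locus, chr8:128306193-128307618, had 72.7. Both were called in all 8 libraries. The region chr8:128412990-128413928, at 336.5 kb, had 67.5 and was missed by KOSC-2 8 Gy replicate 2. In all, 6 of the 28 centromeric regions were called in every library (21.4%, against 15.9% of all regions). All 4 HSC-3 libraries called 8, against 18.1% of all regions, and all 4 KOSC-2 libraries also 8, against 31.8%.

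Within PVT1, 4 regions were open in all 8 libraries, and they stood close together, between 114.2 and 161.6 kb from the MYC position. In the order in which they lie they are chr8:128863669-128864758, chr8:128866087-128867099, chr8:128871863-128872641 and chr8:128911054-128912090. The strongest by mean percentile (89.3) was the third, 122.3 kb from MYC. In KOSC-2 0 Gy replicate 2 it stood above the region at 701.9 kb (percentile 99.2 against 96.8). In HSC-3 8 Gy replicate 1 it stood below that region (53.1 against 94.9). Its fold was 5.29 and 11.01 in HSC-3 at 8 Gy, 10.96 and 10.82 in HSC-3 at 0 Gy, 11.71 and 15.97 in KOSC-2 at 8 Gy and 10.35 and 16.48 in KOSC-2 at 0 Gy, on pileups of 27 to 54 reads in HSC-3 and 72 to 102 reads in KOSC-2. HSC-3 8 Gy replicate 1 was well below the other 7, and the other 3 HSC-3 libraries fell within the lower part of the KOSC-2 range. Its summit moved by 69 bp over the 8 libraries and that of the second region by 40 bp, against a median of 128 bp for the locus regions called everywhere and 107 bp for all such regions.

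At the start of PVT1, a region picked after its values were seen, chr8:128806364-128807540, was called in 7 libraries and missed by HSC-3 0 Gy replicate 2. Its folds were 4.26 to 6.79 in HSC-3 and 4.93 to 8.01 in KOSC-2. The lines overlapped there too.

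Calls along PVT1 were fewer in the short HSC-3 lists than in all others. Of the 20 regions, 4 were called in all 4 HSC-3 libraries, where 18.1% of all regions were. Both of the long HSC-3 lists held 12 of the 20, against 39.6% of all regions, and all 4 KOSC-2 libraries also 12, against 31.8%. The 3 regions called in a single HSC-3 library and in all 4 KOSC-2 libraries were chr8:128902113-128902906, chr8:128919637-128920559 and chr8:129047312-129047781, again picked after their values were seen. The second had a fold of 4.85 in HSC-3 8 Gy replicate 2, against 8.89, 8.98, 4.28 and 8.67 in the KOSC-2 libraries. In the other direction chr8:128879163-128879638 was called in 3 HSC-3 libraries and chr8:128923452-128923873 in 2, and neither in any KOSC-2 library, with folds of 4.65 to 6.32 and 15 to 22 reads at the summit. No count in PVT1 was tested between lines. The share of all regions with these call patterns was not determined, so the patterns are not read as a line difference.

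With the 22504 strongest peaks of each list, which removes the difference in length, PVT1 regions called per library were 8, 7, 7 and 7 in HSC-3 and 9, 13, 8 and 9 in KOSC-2. The lines met at 8. With the full lists the counts were 8, 14, 15 and 7 in HSC-3 and 15, 14, 13 and 14 in KOSC-2. On the centromeric side the shortened lists gave 8, 9, 9 and 12 regions in HSC-3 and 6, 5, 11 and 7 in KOSC-2, and on the telomeric side 11, 16, 18 and 11 in HSC-3 and 10, 11, 13 and 11 in KOSC-2. On both sides the lines overlapped.

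**Figure D2:**
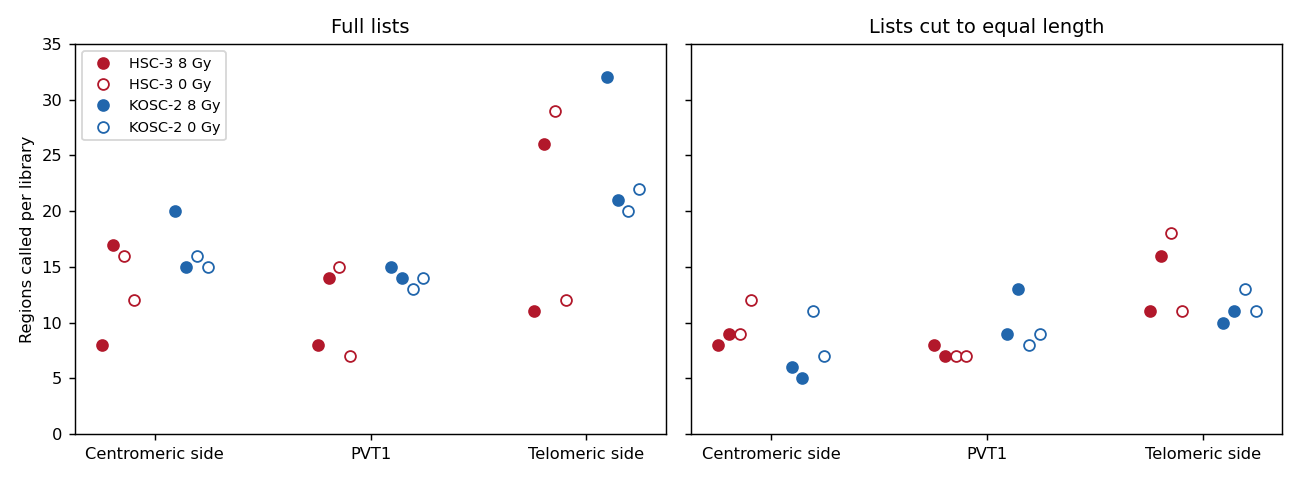
Number of open regions called per library on the centromeric side, in PVT1 and on the telomeric side, with the full lists (left) and with every list limited to its 22504 strongest peaks (right). Points are libraries, filled for 8 Gy and open for 0 Gy. With shortened lists the PVT1 counts are 7 to 8 in HSC-3 and 8 to 13 in KOSC-2.

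On the telomeric side the strongest region was chr8:129188668-129189712, 439.2 kb from the MYC position, called in all 8 libraries at a mean percentile of 86.9. Its fold was 8.16 and 8.87 in HSC-3 at 8 Gy, 7.73 and 9.16 in HSC-3 at 0 Gy, 8.24 and 9.82 in KOSC-2 at 8 Gy and 9.0 and 8.69 in KOSC-2 at 0 Gy. These are close values in every group, with no separation of line or dose. A weaker region called everywhere, chr8:129195341-129195904 (mean percentile 64.1), stood 445.6 kb from MYC.

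Farther out, chr8:129334897-129335498 at 585.2 kb and chr8:129799782-129800416 at 1050.1 kb were also called in every library, with mean percentiles of 68.0 and 72.2. The region at 1050.1 kb is the most telomeric found in all 8. Its folds were 7.02 to 13.99 in HSC-3, the 7.02 and 7.37 in the short lists, and 10.66 to 15.09 in KOSC-2. The fifth of the strongest, chr8:129566991-129567826 at 817.4 kb, was missed by HSC-3 0 Gy replicate 2 alone. Of the 48 telomeric regions, 4 were called in every library (8.33%, against 15.9% of all regions). All 4 HSC-3 libraries called 6, against 18.1% of all regions, and all 4 KOSC-2 libraries 11, against 31.8%. Both long HSC-3 lists held 20, against 39.6%.

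The comparison of lines first asked how much of each list fell in the locus. The share was 0.129% and 0.146% of peaks in HSC-3 at 8 Gy, 0.155% and 0.145% in HSC-3 at 0 Gy, 0.137% and 0.127% in KOSC-2 at 8 Gy and 0.141% and 0.121% in KOSC-2 at 0 Gy. HSC-3 lists averaged 0.144% ± 0.0109 and KOSC-2 lists 0.132% ± 0.00923 (SD, n = 4 each), and the lines overlapped. The difference of 0.012 percentage points was within what the spread between libraries allows (exact two-sided permutation test, p = 0.143, adjusted 0.24 by Benjamini-Hochberg over 959 windows of the same length). It lay at percentile 68.3 of the differences of all windows, of which HSC-3 was above KOSC-2 without overlap in 19% and KOSC-2 above HSC-3 in 16.9%. As a share of the chromosome 8 peaks of each list the sign turned, to −0.0232 percentage points (exact permutation p = 0.886). No window passed the adjusted threshold of 0.05, although 344 had an unadjusted exact permutation p under it, since 4 against 4 libraries cannot give less than 0.0286.

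**Figure D3:**
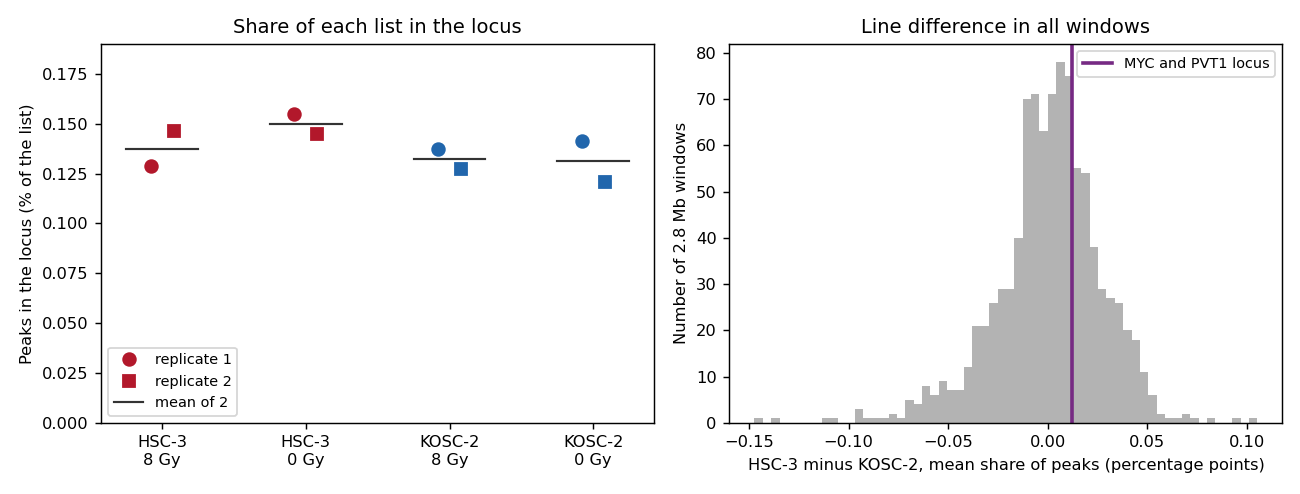
Left, peaks in the locus as a percentage of each library's list, by group, with circles and squares for the replicates and a line for the mean of 2. Right, the difference in mean share, HSC-3 minus KOSC-2, in percentage points for 959 windows of 2.8 Mb, with the locus marked. The 8 shares lie between 0.121% and 0.155%, and the difference of 0.012 sits within the bulk of the windows.

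No region was called in all 4 HSC-3 libraries and no KOSC-2 library, where 0.3% of all regions met that rule. A single region was called in all 4 KOSC-2 libraries and no HSC-3 library, where 2.07% of all regions did. It is chr8:128521678-128522087, 228.1 kb centromeric of MYC. Its folds were 5.29 and 5.60 in KOSC-2 at 8 Gy and 5.59 and 6.72 at 0 Gy, on 17, 13, 19 and 16 reads, at percentiles 10.2 to 31.2 of their lists. Leaving out a library relaxes this rule, since fewer libraries must then match. The count was 2 without HSC-3 8 Gy replicate 2, 3 without HSC-3 0 Gy replicate 1 and 4 without KOSC-2 0 Gy replicate 1. It stayed at 1 without any other library. The shares of all regions with a library left out were not determined.

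Without the 2 short HSC-3 lists, a choice made after seeing the data, 3 of 99 regions were called in both remaining HSC-3 libraries and no KOSC-2 library, against 3.09% of all regions, and 1 in all KOSC-2 libraries alone, against 2.37%. The 3 are the PVT1 regions chr8:128879163-128879638 and chr8:128923452-128923873 described above, and chr8:128511628-128512000, 238.2 kb centromeric of MYC, with folds of 5.55, 6.83 and 7.37 in 3 HSC-3 libraries. The last lies close to the KOSC-2 region just named. Leaving out HSC-3 8 Gy replicate 1 alone, or HSC-3 0 Gy replicate 2 alone, gave 1 such region.

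**Figure D4:**
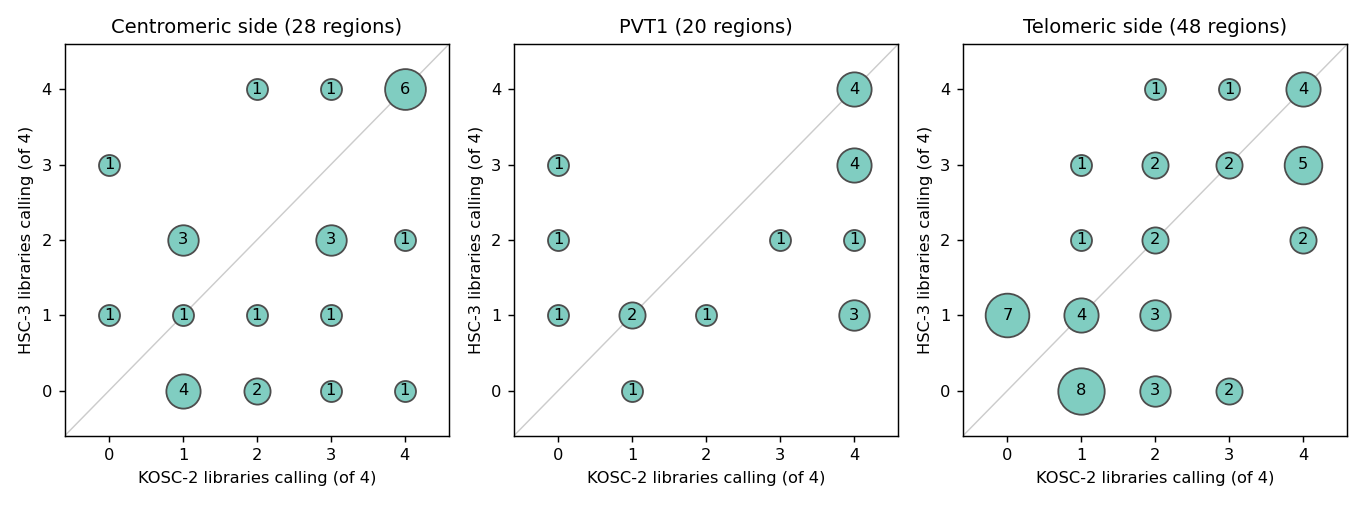
Number of regions by how many HSC-3 libraries (vertical) and KOSC-2 libraries (horizontal) called them, for the centromeric side, PVT1 and the telomeric side. The area of a circle follows the number printed in it. The corners for 4 libraries of a line and 0 of the other hold 1 region in all, on the centromeric side in KOSC-2.

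For the 15 regions called in all 8 libraries, strength was compared as the rank percentile by −log10 p among the 12827 regions called everywhere, a set common to all lists. HSC-3 ranked above KOSC-2 without overlap at 2 of the 15, against 9.51% of the 12827, and KOSC-2 above HSC-3 at none, against 9.52%. The median difference, HSC-3 minus KOSC-2, was 3.5 points for the 15 and −0.52 for all, with 9 above 0 and 6 below.

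The first of the 2 is chr8:128608280-128608960, 141.4 kb centromeric of MYC. Its ranks were 73.9 and 68.9 in HSC-3 at 8 Gy, 71.8 and 78.0 in HSC-3 at 0 Gy, 41.3 and 9.6 in KOSC-2 at 8 Gy and 57.0 and 26.2 in KOSC-2 at 0 Gy. HSC-3 averaged 73.1 ± 3.8 and KOSC-2 33.5 ± 20.3 (SD, n = 4 each). The difference of 39.6 points had an exact two-sided permutation p of 0.0286, the smallest possible, and of 0.15 after adjustment over all 12827 regions. The lines stayed apart when ranked by fold, with a difference of 27.7 points. The folds themselves, 8.9 to 13.19 in HSC-3 and 8.4 to 11.95 in KOSC-2, overlapped. Leaving out a library cannot make separated ranks overlap, and the difference was then 31.6 to 47.4 points.

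The second is chr8:128866087-128867099 in PVT1, 116.6 kb from the MYC position. Its ranks were 66.2 and 69.6 in HSC-3 at 8 Gy, 34.9 and 83.4 in HSC-3 at 0 Gy, 22.4 and 22.3 in KOSC-2 at 8 Gy and 25.0 and 32.2 in KOSC-2 at 0 Gy. HSC-3 averaged 63.5 ± 20.5 and KOSC-2 25.5 ± 4.7 (SD, n = 4 each), a difference of 38.0 points with the same exact permutation p of 0.0286 and adjusted p of 0.15. The lowest HSC-3 library stood just above the highest KOSC-2 library. Ranked by fold the lines overlapped, with a difference of 18.6 points (exact permutation p = 0.143). No region among the 12827 passed the adjusted threshold by line, where 0.15 was the lowest value and 2441 had an unadjusted exact permutation p under 0.05. Without HSC-3 0 Gy replicate 2, 5 of the 15 locus regions were separated by line in either direction, against 25% of the 12827, in place of 2 against 19.0%.

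**Figure D5:**
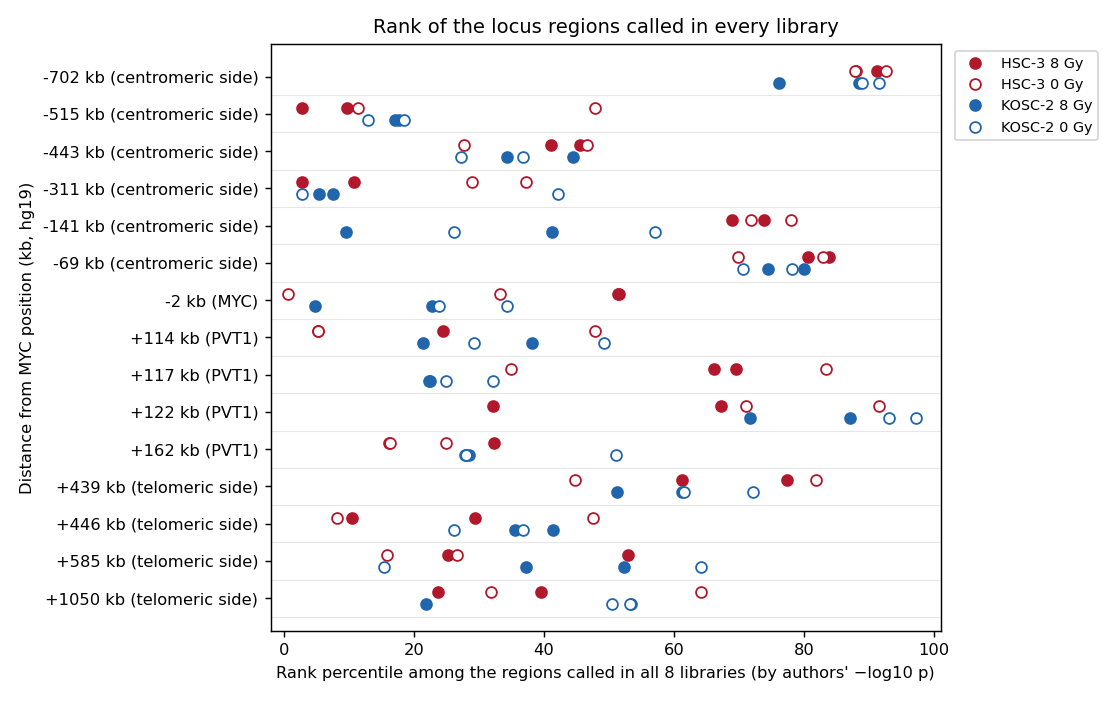
Rank percentile, by the authors' −log10 p among 12827 regions called in all 8 libraries, of the 15 such regions in the locus, ordered by distance from MYC. Red is HSC-3 and blue KOSC-2, filled for 8 Gy and open for 0 Gy. The lines do not overlap at −141 and +117 kb, and they overlap at the other 13.

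The region next to MYC ranked at 51.6, 51.4, 33.3 and 0.6 in HSC-3 and at 22.7, 4.8, 34.3 and 23.9 in KOSC-2, with 8 Gy before 0 Gy in each line. Its mean was 34.2 ± 24.0 in HSC-3 and 21.4 ± 12.3 in KOSC-2 (SD, n = 4 each), a difference of 12.8 points that the spread covers (exact permutation p = 0.4, adjusted 0.6). At 701.9 kb centromeric the means were 89.9 ± 2.4 in HSC-3 and 86.2 ± 6.9 in KOSC-2, close together at the top of the scale.

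For the doses, the share of peaks in the locus averaged 0.138% at 8 Gy and 0.150% at 0 Gy in HSC-3, and 0.132% at 8 Gy and 0.131% at 0 Gy in KOSC-2 (n = 2 each). The doses overlapped in KOSC-2, and in HSC-3 the 8 Gy library replicate 2 was above the lower 0 Gy library. Averaged over the lines, 8 Gy minus 0 Gy was −0.00555 percentage points (exact permutation within lines, p = 0.556, adjusted 1). With 36 assignments this test cannot give less than 0.0556, and no window of the genome passed it.

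Few regions divided the doses within HSC-3. None was called in both HSC-3 8 Gy libraries and neither HSC-3 0 Gy library, against 0.68% of all regions. The reverse held for 1, against 0.957% of all, namely chr8:129115681-129116064, 365.9 kb telomeric of MYC, with folds of 7.91 and 6.64 at 0 Gy. That region was also called in 1 KOSC-2 library of each dose. Leaving out any HSC-3 library raised the HSC-3 count of divided regions to 11 (to 14 without HSC-3 0 Gy replicate 2), since fewer libraries then had to match. The share of all regions under that looser rule was not determined, so the rise is not read as a trait of the locus.

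Among KOSC-2 libraries, 7 regions had a call in both at 8 Gy and in neither at 0 Gy, or 7.0% against 3.51% of all regions, and 1 the other way, against 0.87%. The 5 of highest mean percentile were chr8:129121081-129121533, chr8:128981650-128982083, chr8:129264028-129264414, chr8:129326660-129327245 and chr8:128673466-128673854. Their KOSC-2 8 Gy folds were 4.48 to 8.76 on pileups of 9 to 28 reads, and in KOSC-2 8 Gy replicate 2 all of them had 10 to 13 reads, where the smallest pileup called in that library was 6. Of these 5, 4 were also called in at least 1 HSC-3 library, the first of them in both HSC-3 8 Gy libraries and in HSC-3 0 Gy replicate 1.

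The single region called only without irradiation in KOSC-2 was chr8:130017380-130017805, 1267.6 kb from MYC, with folds of 8.55 and 10.45. It was called in 1 HSC-3 library of each dose. With all KOSC-2 lists limited to the 38234 strongest peaks, a choice made after seeing the data, 4 of 96 regions were called only at 8 Gy, against 2.46% of all, and 1 only at 0 Gy, against 1.4%. The count of 8 divided regions in KOSC-2 became 18 without 8 Gy replicate 1 and 20 without 8 Gy replicate 2. It became 11 without 0 Gy replicate 1 and 21 without 0 Gy replicate 2, since fewer libraries then had to match. The shares of all regions with a library left out were not determined. The dose-divided counts were not tested, since 2 libraries against 2 allow 6 assignments and an exact two-sided p of at least 0.333.

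Among the 15 regions called everywhere, 8 Gy ranked above 0 Gy in both lines without overlap at none, against 3.63% of the 12827, and 0 Gy above 8 Gy at 1, against 3.86%. That region is the strongest of PVT1, chr8:128871863-128872641. Its ranks were 32.1 and 67.2 in HSC-3 at 8 Gy, 71.0 and 91.6 in HSC-3 at 0 Gy, 71.7 and 87.1 in KOSC-2 at 8 Gy and 93.1 and 97.2 in KOSC-2 at 0 Gy. Every 8 Gy library was below both 0 Gy libraries of its line. The difference, 8 Gy minus 0 Gy, averaged −23.7 points (exact permutation within lines, p = 0.0556, the smallest possible, adjusted 0.742 over the 12827 regions). Without HSC-3 8 Gy replicate 1, the lowest of the 8, it was −15.0 points (exact permutation p = 0.167), and ranked by fold the doses overlapped (−18.8 points, exact permutation p = 0.222). No region of the 12827 passed the adjusted threshold by dose, and none had an unadjusted exact permutation p under 0.05.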

How the data were processed

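ATAC-seq peak lists of 8 libraries were analysed, grouped by the line and dose in the labels. Tools listed in the submitters' processing notes, with no roles, are MACS2 2.2.6, Bowtie2 2.3.4.2, deepTools, SAMtools 1.9 and FastQC 0.11.7, and the build is hg19. Treatment of duplicates, blacklisted regions and the Tn5 shift is not given in the sources used here. Each line deposited by the authors gives a peak's score (a whole number), its fold ratio over local background, −log10 of its p-value, −log10 of its q-value and its summit offset. The lowest −log10 q was 2.02. Pileup reads and background were recovered from fold and p, and 100% of pileups came out whole within 0.0001 on the −log10 p scale.

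Peaks on chromosomes 1 to 22 and X were merged across lists, and a region counted as called in each library with a peak inside it. Lines were compared by exact permutation of 4 against 4 libraries (70 assignments) and doses by exchange within lines (36 assignments), with Benjamini-Hochberg adjustment over 959 windows or 12827 regions. Window shares needed at least 50 peaks summed over the lists. Regions were named by rule: those within 10 kb of MYC, PVT1 regions called in all 8 libraries, the 5 of highest mean percentile on each side, line-only regions, and dose-divided regions (5 of highest percentile where more). Exceptions are stated where they occur. The stretch and these rules were chosen with earlier results of these data known. Alternatives were a −log10 q of at least 5, equal list lengths, 50% cover of a region, peaks above the 50th percentile, calls in at least 3 of 4 libraries, other denominators, ranks by fold, leaving out each library, and a replicate block. The code, tested on simulated lists, ran in Python 3.11.15 with scipy 1.17.1, numpy 2.4.6, matplotlib 3.10.9 and pandas 2.3.3.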

Additional observations from a re-analysis of the deposited data

Results flagged for a closer look

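Among 44 sets of 4 libraries of a line, 4 had a library set apart from the other 3 by Dixon's criterion, where chance gives about 1 in 20. In KOSC-2, 0 Gy replicate 1 had 31.4% of its locus regions on the centromeric side, against 28.3% to 28.8% in the other 3 libraries. The same library ranked chr8:128438920-128439586 at percentile 42.1 among regions called everywhere, against 2.8 to 7.5 in the others, and the PVT1 region chr8:128911054-128912090 at 51.0, against 27.8 to 28.4. KOSC-2 8 Gy replicate 2 ranked the most telomeric shared region, chr8:129799782-129800416, at 21.9, against 50.5 to 53.4.

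The median percentile of locus peaks within their lists stood in opposite orders by dose in the lines. It was 52.7 and 53.5 at 8 Gy and 51.5 and 47.4 at 0 Gy in HSC-3, a mean difference (8 Gy minus 0 Gy) of 3.66. It was 47.9 and 51.5 at 8 Gy and 54.2 and 59.1 at 0 Gy in KOSC-2, a mean difference of −6.98. The difference between the lines was not tested. These percentiles come from lists of 22504 to 51693 peaks, so they show no change with dose.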

How the results depend on the processing

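Counts of regions divided by line or dose moved with list length and with libraries left out. With a library left out, fewer must match or stay apart, which by itself favours higher counts. For line-only and dose-divided regions, the shares of all regions with a single library left out were not determined. Regions called only in HSC-3 (0 as reported) were 2 when 3 of 4 libraries sufficed and 3 without the 2 short lists, and 0 to 1 with single libraries left out. Regions called only in KOSC-2 (1) were 0 with equal list lengths, 0 with peaks above the list median, 2 with 50% cover, 4 when 3 of 4 libraries sufficed, and 1 to 4 with single libraries left out. Dose-divided regions in HSC-3 (1) were 3 with equal lengths and 1 to 14 with single libraries left out. Those in KOSC-2 (8) were 4 with equal lengths of all lists, 3 above the list median, 5 with KOSC-2 lists of equal length and 8 to 21 with single libraries left out. Shared regions separated by line in rank (2) were 1 by fold and 2 to 5 with single libraries left out. The line difference in share was −0.0232 points as a share of chromosome 8 peaks and 0.00822 to 0.0169 with single libraries left out, with exact permutation p from 0.0571 to 0.886 over all alternatives. The dose difference, averaged over the lines, was below 0 in all 15 alternatives, which draw on the same 8 libraries. Its exact permutation p ran from 0.222 to 0.889, in a design that cannot go below 0.0556. As reported it was −0.0124 points in HSC-3 and 0.00125 in KOSC-2, opposite in sign.

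Correlations of same-numbered deviations ran from −0.281 to 0.22, which shows no clear pairing by replicate number and does not exclude it. With a replicate block the exact permutation p was 0.167 for the line difference of 0.012 and 0.75 for the dose difference of −0.00555, and 2 of 15 shared regions (13.3%, against 25.4% of all 12827) were separated by line the same way within both numbers.

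Depth set a floor of 5 to 9 reads per called summit, so an uncalled region was not shown to be closed.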

Other observations

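The local background under the locus peaks, divided by the median of the same library over windows of this length, was 0.971 and 1.08 in HSC-3 at 8 Gy, 0.865 and 1.31 in HSC-3 at 0 Gy, 1.08 and 0.975 in KOSC-2 at 8 Gy and 1.17 and 0.903 in KOSC-2 at 0 Gy. The lines overlapped, and their mean difference, HSC-3 minus KOSC-2, of 0.0255 lay at percentile 54.5 of 836 windows. The mean background under the locus stood at percentile 61.6 of windows in HSC-3 and 55.7 in KOSC-2, and the highest single value was in a short HSC-3 list.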
